A study of Saccharomyces cerevisiae with 32 samples.

Results

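Transcript levels in a budding yeast strain with mutant forms of 4 cell cycle transcription factors (4P) were set against those of its control strain (WT). The time was 105 min after release from a G1 arrest, taken here as the second mitosis of the time course. The stage of each strain at that time was not tested. The comparison used the arrays that the labels assign to both strains at that time, 4 of the 32 arrays in the study, and all 6205 genes that passed the filter on dim probes. WT was strain YBL320 and carried HCM1-3HA and TOS4-3FLAG together with YOX1-3V5 and YHP1-13MYC. The 4P strain, YBL289, carried hcm1-15A-3HA and tos4-9A-3FLAG together with yox1-9A-3V5 and yhp1-13A-13MYC, so the tags were shared and the mutant alleles were not. The second channel of every array held RNA of the untagged strain MW836a (HCM1 TOS4 YOX1 YHP1), growing asynchronously in mid-log phase. Alpha-factor, a mating pheromone, held the cultures in G1 for 2 h, and after its removal they were sampled at 15 min intervals, of which 105 min was the last. Each strain was followed in 2 time courses with the dyes swapped, Cy3 marking the synchronised RNA of replicate 1 and Cy5 that of replicate 2. Each genotype was represented by 1 strain, whose construction the labels do not describe. With 2 arrays per strain at each time, p-values rest on the spread between the replicate time courses, pooled over all 16 groups of strain and time. Replicate and dye orientation coincide, so that spread also holds the dye effect.

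Yox1 and Yhp1 are homeodomain repressors that bind beside Mcm1 at early cell cycle box promoters and keep them silent outside the interval from late mitosis to early G1. Hcm1 is a forkhead activator of S-phase genes, among them genes for the chromosome segregation machinery and for later forkhead factors. Tos4, a protein with a forkhead-associated domain, is expressed in late G1 and S phase. Early cell cycle box genes supply the MCM helicase and its loader for the next round of replication. Mcm1 acts with Fkh2 and Ndd1 on another group, the CLB2 cluster, which carries cells into and through mitosis. The lists used here for these groups share CDC20 and SPO12. The series title names the kinase Cdk1 as the regulator of the mutated factors, and the question was what the mutant forms change in transcription.

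Every value below is a log2 ratio of the synchronised sample over the reference. Differences are 4P minus WT on that log2 scale, each with its standard error (SE) from a limma fit over all 32 arrays, and limma p values were adjusted by Benjamini and Hochberg over all genes. A gene was called when its adjusted p was below 0.05. Arrays of a bulk culture cannot tell fewer cells at a given stage from less RNA per cell.

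The 4 arrays were not of equal quality. The 4P array of replicate 1 had 1761 spots marked as outliers, 1760 of them in the reference channel, against 0 to 8 on the other arrays at 105 min. Its duplicate spots correlated at r = 0.525, against 0.924 to 0.972 on the others, and its reference signal was 4.90 times background. For 432 genes it gave no value, which left 5773 genes with all 4 values. Replicates correlated across genes at r = 0.662 in WT and 0.586 in 4P, the lowest of the 16 groups. The spread was pooled over all groups, so the median SE was 0.189 at 105 min against 0.186 at each other time. The SEs and p-values given here may therefore understate the spread at 105 min. The arrays lay on 4 different slides, so no slide held both strains at 105 min. The MATa-specific genes, which mark the mating type that responds to alpha-factor, were above background on all 4 arrays for 7 of 7 genes. So were 6068 of the 6205 genes tested, 3 of 4 alpha-specific genes and 12 of 12 meiotic genes. These counts therefore do not tell the mating type.

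At 105 min 23 genes differed between the strains, 19 lower in 4P and 4 higher. These are 0.371% of the genes tested, 0.306% lower and 0.0645% higher. All 23 differed in the same direction in both dye orientations, and on every one the WT arrays lay apart from the 4P arrays. The genes were chosen by their difference on these same 4 arrays, so this was largely built in and is not separate support. Over all genes such separation was common, with 14% lower and 14.7% higher of the 5773 genes with 4 values. Before adjustment 4.37% of all genes were lower and 4.16% higher at p below 0.05, the background for the unadjusted counts of gene lists given further on. The group that fell held genes of the MCM helicase (MCM2, MCM4, MCM5 and MCM7) and DBF2, CDC20 and BNS1 of anaphase and mitotic exit. It also held the dynein pathway gene NDL1, genes for secreted proteins (PRY1, YGP1), WSC4 of the WSC family, the membrane protein gene YRO2 and the eisosome gene EIS1. The rest were acid phosphatase genes (PHO3, PHO11), the histone deacetylase gene HST4, the unnamed gene YML119W, TDA6 and YHL026C. The genes that rose were MET17, HXT4, ERG3 and COS1.

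**Figure D1:**
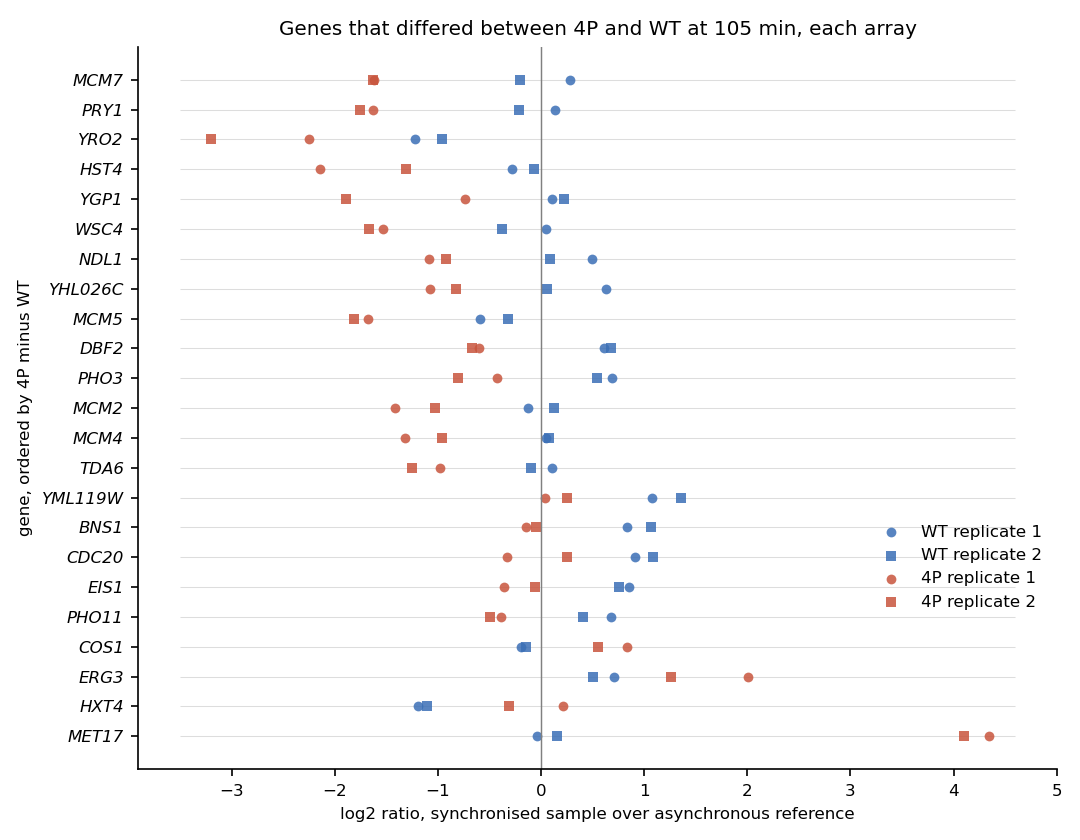
Log2 ratio over the reference (horizontal axis) on each of the 4 arrays at 105 min for the 23 genes that differed, ordered by 4P minus WT. Blue symbols are WT and red symbols 4P, circles are replicate 1 and squares replicate 2. In every row the 2 blue symbols lie to 1 side of the 2 red ones, with MET17 the farthest apart.

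The MCM helicase genes were lower in 4P. MCM7 stood at 0.28 and -0.20 on the WT arrays and at -1.62 and -1.63 on the 4P arrays. The 4P values nearly coincided, and both lay far under WT (-1.67 ± 0.21 SE, a 3.17-fold lower level, n = 2 arrays per strain, limma adjusted p = 0.000244). MCM5 stood at -0.59 and -0.32 in WT and at -1.67 and -1.81 in 4P. MCM2 stood at -0.13 and 0.13 in WT and at -1.42 and -1.03 in 4P. MCM4 stood at 0.05 and 0.08 in WT and at -1.32 and -0.96 in 4P. In each of these genes the higher 4P array was still lower than the lower WT array. The other subunits pointed the same way without passing the test. MCM6 differed by -0.90 ± 0.24 (adjusted p = 0.146) and MCM3 by -0.64 ± 0.30 (adjusted p = 0.575).

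MCM7, MCM5 and MCM2 had nearby levels in both strains at 90 min. In WT the mean of MCM7 went from -1.42 at 90 min to 0.04 at 105 min, while in 4P it went from -1.67 to -1.63. MCM5 went from -1.52 to -0.45 in WT and from -1.54 to -1.74 in 4P. MCM2 went from -0.92 to 0.00 in WT and from -0.90 to -1.22 in 4P. The differences at 90 min had been -0.25, -0.03 and 0.03 in these genes. A test of the change from 90 to 105 min in 4P against that in WT called 0 genes in limma, with 177 of 6205 at an unadjusted p below 0.05. For MCM7 that test gave -1.42 (adjusted p = 0.265). At 45 min the strains had also differed in MCM7, at 0.05 in WT and -1.23 in 4P (adjusted p = 0.00927). At that time MCM5 was at -1.03 in WT and -1.83 in 4P, and MCM2 at -0.21 and -1.04, without passing (adjusted p = 0.061 in both).

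Over the early cell cycle box list as a whole, all 11 genes were lower in 4P and their arrays lay apart in all 11, against the 14% of all genes given above. Of the 11, 5 passed the test, and the median difference was -0.90 against 0.00 over all genes. These genes were chosen with earlier results of the same arrays known, and their fall at 105 min was among those results. The median level of the list went from -0.75 to 0.06 in WT between 90 and 105 min and from -0.81 to -0.84 in 4P. CDC6, whose product loads the helicase, stood at 0.29 and 0.30 in WT and at -0.18 and -0.08 in 4P (-0.43 ± 0.16, adjusted p = 0.426). The G1 cyclin gene CLN3 differed by -0.62 ± 0.17 (adjusted p = 0.178) and SWI4, the DNA-binding subunit of the G1/S factor SBF, by -0.21 ± 0.15 (adjusted p = 0.789). In a separate list of 12 genes of origin recognition, licensing and firing, which leaves out CDC6 and the helicase, 4 were lower and 8 higher (7 and 5 with the scanner's ratios and in the authors' deposited table). Of these genes 0 passed, 2 were higher at an unadjusted p below 0.05, and the median was 0.07. Among them CDC7, the kinase that fires origins, stood at -0.39 and -0.68 in WT and at 0.29 and 0.00 in 4P (0.68 ± 0.19, adjusted p = 0.184).

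**Figure D2:**
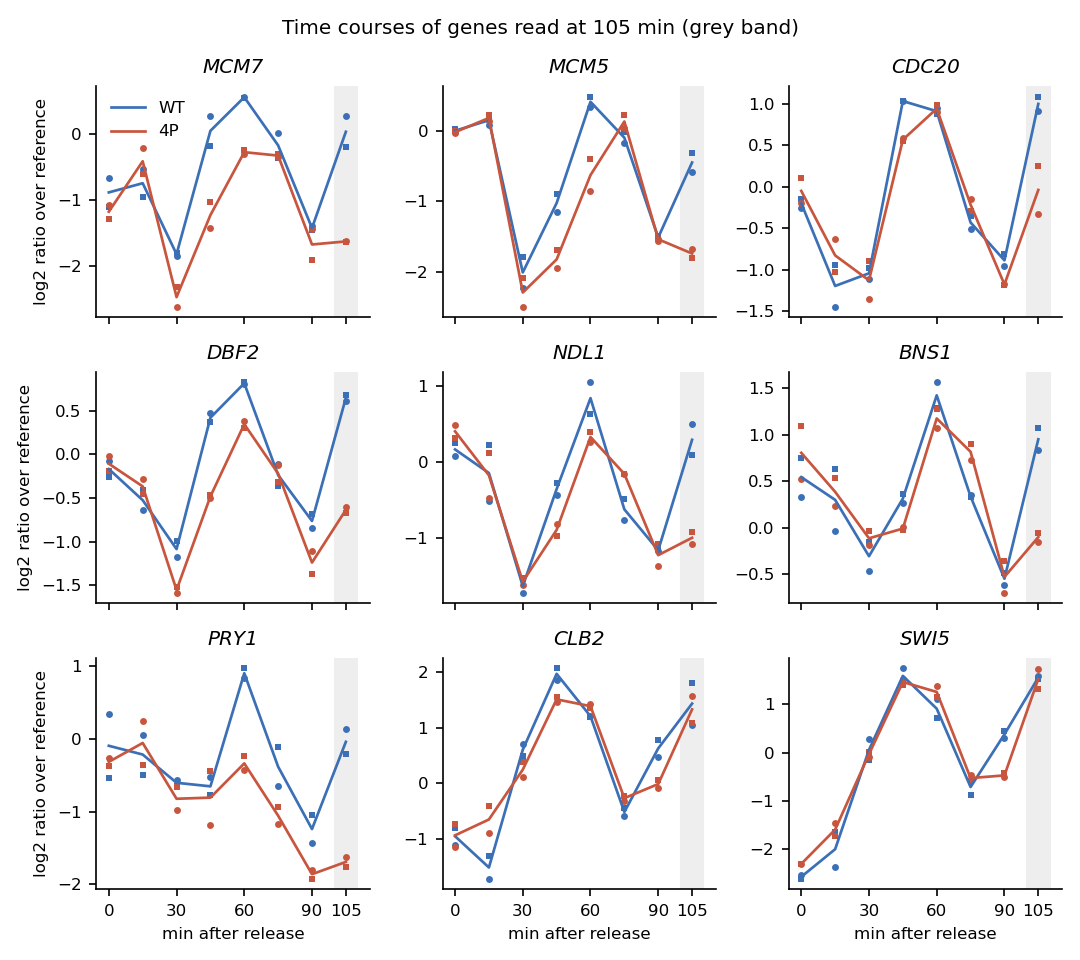
Log2 ratio over the reference (vertical axes, 1 scale per panel) against min after release for 9 genes, with WT in blue and 4P in red, lines for means of 2 arrays, circles for replicate 1 and squares for replicate 2. At 105 min (grey band) MCM7, MCM5, DBF2, NDL1, BNS1, CDC20 and PRY1 stand lower in 4P, while the arrays of CLB2 and SWI5 overlap.

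Genes of the CLB2 cluster were mostly lower in 4P, but few passed the test. The cluster had 25 of 26 genes lower (22 of 26 with median centring, 24 with the scanner's ratios) and a median of -0.36. Of these 3 were called, DBF2, WSC4 and CDC20, the last also a member of the early cell cycle box list. At an unadjusted p below 0.05 13 were lower and 0 higher, against 4.37% of all genes lower. The arrays lay apart downward in 19 and upward in 0, against 14% of all genes downward. The median difference of the cluster had been larger at 90 min, at -0.56, after 0.13 at 75 min. At 45 min it had been -0.21. Several of its best known members had overlapping arrays. CLB2, the main mitotic cyclin gene, stood at 1.05 and 1.81 in WT and at 1.57 and 1.09 in 4P, with a 95% interval of the difference from -0.57 to 0.36. The polo kinase gene CDC5 stood at 0.97 and 1.1 in WT and at 1.21 and 0.84 in 4P, with an interval from -0.33 to 0.32. SWI5, a transcription factor gene of mitotic exit, stood at 1.59 and 1.53 in WT and at 1.73 and 1.33 in 4P, with an interval from -0.46 to 0.40. In all these genes, as in CLB1 (interval -0.50 to 0.43), the arrays of the strains overlapped. The intervals of CLB2, SWI5 and CLB1 include the median of the cluster, and that of CDC5 ends short of it.

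DBF2, a kinase of the mitotic exit network and a called member of the cluster, stood at 0.61 and 0.68 in WT and at -0.60 and -0.67 in 4P. The arrays of each strain nearly coincided and the strains lay apart (-1.28 ± 0.13, a 2.43-fold lower level, adjusted p = 2.1e-05). CDC20, the activator of the anaphase-promoting complex, stood at 0.91 and 1.09 in WT and at -0.33 and 0.25 in 4P. BNS1, a relative of the mitotic exit gene SPO12, stood at 0.83 and 1.07 in WT and at -0.15 and -0.05 in 4P (-1.05 ± 0.21, adjusted p = 0.0175). Both 4P arrays of BNS1 lay near the reference level. NDL1, a dynein pathway gene related to NudE, stood at 0.50 and 0.09 in WT and at -1.08 and -0.92 in 4P (-1.29 ± 0.21, adjusted p = 0.00318). YML119W, a gene with no standard name, stood at 1.07 and 1.36 in WT and at 0.03 and 0.25 in 4P (-1.07 ± 0.16, adjusted p = 0.00134).

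Lists of genes that act with DBF2 and CDC20 held few calls. In the mitotic exit network 7 of 10 genes were lower and DBF2 alone passed. MOB1, whose product activates Dbf2, stood at 0.30 and 0.52 in WT and at -0.38 and -0.02 in 4P (-0.60 ± 0.24, adjusted p = 0.437). Of 19 genes of the anaphase-promoting complex and its targets 11 were lower, CDC20 alone passed, and the median was -0.05. Among 16 cytokinesis and septin genes 11 were lower (7 with median centring) and 0 passed, with 5 lower and 1 higher at an unadjusted p below 0.05. HOF1, which links the actin ring to septum formation, stood at 1.49 and 1.29 in WT and at 0.39 and 0.65 in 4P (-0.87 ± 0.24, adjusted p = 0.184). IQG1, a scaffold of the contractile ring, differed by -0.46 ± 0.17 (adjusted p = 0.426). Genes of the next step, cell separation and entry into G1, had 10 of 20 lower, 0 called and a median of -0.01. The replicates did not share this split, with medians of 0.48 in replicate 1 and -0.19 in replicate 2, and 12 of the 20 had all 4 values. The number lower was 6 in the authors' deposited table and with outlier spots kept, 4 with slide as a block (median 0.30), and 13 without 4P replicate 1. Their level was low in both strains, with medians of -1.69 in WT and -1.77 in 4P. Of these genes ASH1, a repressor of mating type switching, stood at -1.69 and -1.27 in WT and at -2.71 and -2.17 in 4P (-0.96 ± 0.25, adjusted p = 0.132). The Cdk inhibitor gene SIC1 had overlapping arrays and an interval from -0.42 to 0.33.

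**Figure D3:**
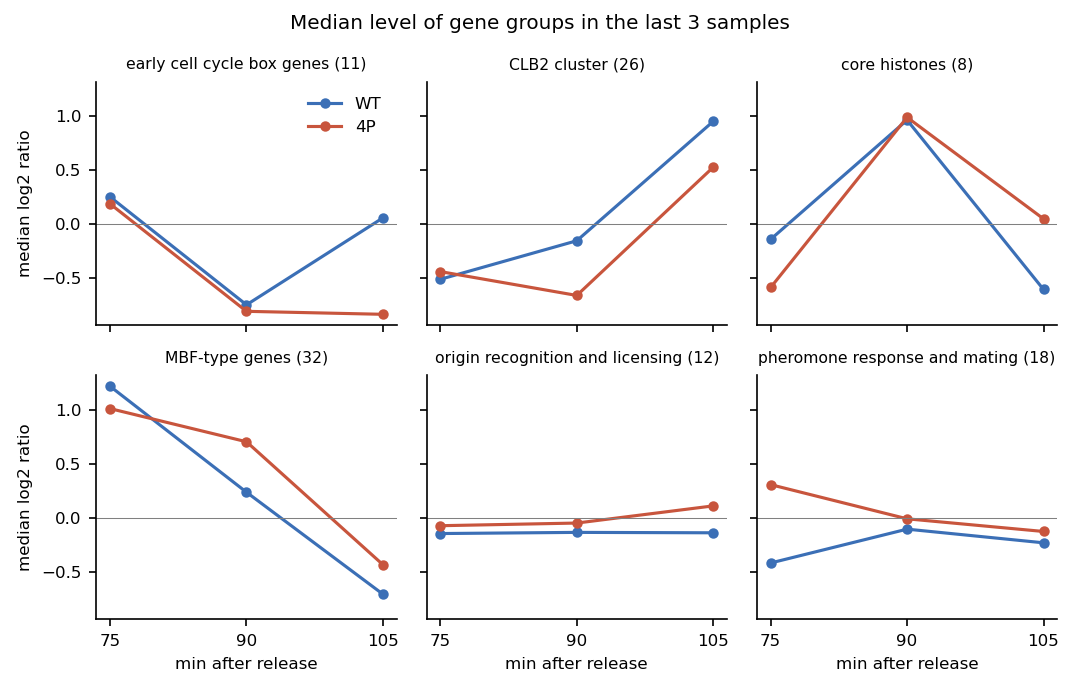
Median log2 ratio over the reference (vertical axis, shared) of 6 gene lists at 75, 90 and 105 min, WT in blue and 4P in red, with the number of genes in parentheses. Between 90 and 105 min the early cell cycle box median goes from -0.75 to 0.06 in WT and from -0.81 to -0.84 in 4P, and the histone median from 0.96 to -0.61 in WT and from 0.99 to 0.05 in 4P.

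PRY1 and YGP1, which encode secreted proteins, and WSC4 were among the largest falls. PRY1, which encodes a secreted sterol-binding protein, stood at 0.13 and -0.21 in WT and at -1.63 and -1.76 in 4P (-1.65 ± 0.27, adjusted p = 0.00318). Its mean at 90 min had been -1.24 in WT and -1.86 in 4P. WSC4, a gene of the WSC family that was listed here with the cell wall stress sensors, stood at 0.05 and -0.38 in WT and at -1.53 and -1.67 in 4P. Of the other 5 members of the sensor list, 4 were higher and 1 lower, and none passed. The highest was WSC3 at 0.53 ± 0.19 (adjusted p = 0.414). EIS1, an eisosome gene, stood at 0.85 and 0.76 in WT and at -0.36 and -0.06 in 4P (-1.01 ± 0.20, adjusted p = 0.0141). YGP1, a secreted glycoprotein gene, stood at 0.10 and 0.22 in WT and at -0.74 and -1.89 in 4P (-1.48 ± 0.30, adjusted p = 0.0262). Its 4P arrays lay farther apart than the nearest arrays of the 2 strains. NCA3, of the SUN family of cell wall proteins, differed by -0.89 ± 0.23 (adjusted p = 0.146). Of 15 cell wall genes measured 9 were lower, YGP1 alone passed, and the median was -0.23.

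YRO2, which encodes a membrane protein of the stress response, stood at -1.22 and -0.96 in WT and at -2.25 and -3.20 in 4P (-1.64 ± 0.27, adjusted p = 0.00318). It was below the reference on all 4 arrays. Among 24 heat shock and stress genes 14 were lower, YRO2 alone passed, and the median was -0.13. At an unadjusted p below 0.05 4 were lower and 0 higher, and the arrays lay apart downward in 9 and upward in 0. The number lower was 23 of 24 without 4P replicate 1, 19 with slide as a block, 18 with the scanner's ratios and in the authors' deposited table, and 12 without 4P replicate 2. The small heat shock gene HSP42 stood at 1.49 and 0.99 in WT and at 0.38 and 0.67 in 4P (-0.72 ± 0.23, adjusted p = 0.297). The Hsp70 gene SSA4 differed by -0.66 ± 0.18 (adjusted p = 0.146). In the trehalose and glycogen list 11 of 17 were lower and 0 passed, with 4 lower at an unadjusted p below 0.05. TPS1, a trehalose synthase gene, stood at -0.09 and -0.16 in WT and at -0.96 and -0.80 in 4P (-0.75 ± 0.26, adjusted p = 0.383), and GLG2, a glycogenin gene, differed by -0.53 ± 0.13 (adjusted p = 0.0932).

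Some acid phosphatase genes fell. PHO3 stood at 0.69 and 0.54 in WT and at -0.42 and -0.81 in 4P (-1.23 ± 0.24, adjusted p = 0.0141), and PHO11 at 0.68 and 0.41 in WT and at -0.39 and -0.49 in 4P (-0.98 ± 0.21, adjusted p = 0.044). PHO12 gave nearly the same difference, -0.97 ± 0.26, without passing (adjusted p = 0.146), and PHO5 gave -0.51 ± 0.15 (adjusted p = 0.211). PHO11 and PHO12 are near-identical copies, as are PHO3 and PHO5 in large part, so their probes may share targets and the genes are not separate evidence. In the phosphate list as a whole 9 of 17 genes were lower and the median was -0.02. In WT the mean of PHO3 had climbed from -1.75 at 90 min to 0.62, and in 4P from -1.67 to -0.61.

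HST4 encodes a histone deacetylase of the sirtuin family. It stood at -0.28 and -0.07 in WT and at -2.14 and -1.31 in 4P (-1.55 ± 0.26, adjusted p = 0.00337). TDA6 stood at 0.11 and -0.10 in WT and at -0.98 and -1.25 in 4P (-1.12 ± 0.20, adjusted p = 0.00572). YHL026C stood at 0.63 and 0.06 in WT and at -1.08 and -0.82 in 4P (-1.29 ± 0.25, adjusted p = 0.0141). In all of these genes both 4P arrays lay under the reference level and under both WT arrays.

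Of the genes that rose, MET17 differed at every time and the others by less. MET17 encodes the enzyme that makes homocysteine from O-acetylhomoserine and is a common marker locus in laboratory strains. It stood at -0.04 and 0.15 in WT and at 4.35 and 4.10 in 4P (4.17 ± 0.49, a 17.9-fold higher level, adjusted p = 7.82e-05). The same gene was called at all of the other 7 times, with 4.77 at 45 min and 4.43 at 90 min. Genes called higher were 0.0483% of all genes at 0 min, 0.0967% at 15 min, 0.0322% at 30 min and 0.0161% at each of 45, 60 and 90 min, where MET17 was the only one. The sulfur and methionine list had 22 of 24 genes higher, but MET17 alone passed, and the median was 0.18. MUP1, a methionine permease gene, stood at 0.22 and 0.04 in WT and at 1.17 and 0.59 in 4P (0.75 ± 0.20, adjusted p = 0.146).

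HXT4, a glucose transporter gene, stood at -1.19 and -1.10 in WT and at 0.21 and -0.31 in 4P (1.1 ± 0.18, a 2.14-fold higher level, adjusted p = 0.00284). Its difference had been 0.84 at 90 min and -0.32 at 60 min. ERG3, a sterol desaturase gene, stood at 0.71 and 0.51 in WT and at 2.01 and 1.26 in 4P (1.03 ± 0.23, adjusted p = 0.0492). The other ergosterol genes were not called, and the median of the 21 was 0.06. COS1 belongs to a subtelomeric family whose copies share most of their sequence, so its probe may read several members. It stood at -0.19 and -0.15 in WT and at 0.83 and 0.56 in 4P (0.86 ± 0.19, adjusted p = 0.044) and was also called at 0 and 15 min.

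Histone genes, which are transcribed in S phase, were higher in 4P without passing the test. All 8 core histone genes were higher (7 of 8 with the scanner's ratios), 0 were called and 3 had an unadjusted p below 0.05, with a median of 0.51. HHF2 stood at -0.60 and -0.62 in WT and at 0.33 and -0.17 in 4P (0.68 ± 0.22, adjusted p = 0.314), and HHF1 at -0.50 and -0.71 in WT and at 0.21 and -0.13 in 4P (0.64 ± 0.22, adjusted p = 0.37). HTA1 and HTA2 differed by 0.61 ± 0.37 (adjusted p = 0.705) and 0.68 ± 0.37 (adjusted p = 0.676). The copies of a histone are nearly identical and their probes may cross-read. On the arrays the histone medians were -0.49 and -0.61 in WT and 0.28 and -0.17 in 4P, where the first 4P array lacked 3 of the genes. The strains had shared the S-phase peak at 90 min, with 0.96 in WT and 0.99 in 4P, and by 105 min the median was -0.61 in WT and 0.05 in 4P.

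Lists of the G1/S transition held more genes higher than lower. Of 32 MBF-type genes, which serve replication, 28 were higher (25 of 32 in the authors' deposited table, 23 with the scanner's ratios, 18 with slide as a block, where the median was 0.075). Of these genes 0 passed and 7 had an unadjusted p below 0.05, with a median of 0.14. The median difference of the MBF-type list had been larger at 90 min, at 0.45, after -0.01 at 75 min. MSH6, a mismatch repair gene, stood at -1.28 on both WT arrays and at -0.48 and -0.87 in 4P (0.60 ± 0.18, adjusted p = 0.224). The cohesin gene SMC3 differed by 0.51 ± 0.18 (adjusted p = 0.383). Among the G1/S cyclin genes CLN1 differed by 0.62 ± 0.26 (adjusted p = 0.484), CLN2 by 0.50 ± 0.25 (adjusted p = 0.645), CLB5 by 0.15 ± 0.12 (adjusted p = 0.824) and CLB6 by 0.02 ± 0.32 (adjusted p = 0.996). In the SBF-type list 13 of 18 genes were higher, 0 passed (1 at an unadjusted p below 0.05) and the median was 0.12. That median had been -0.47 at 75 min and 0.24 at 90 min.

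**Figure D4:**
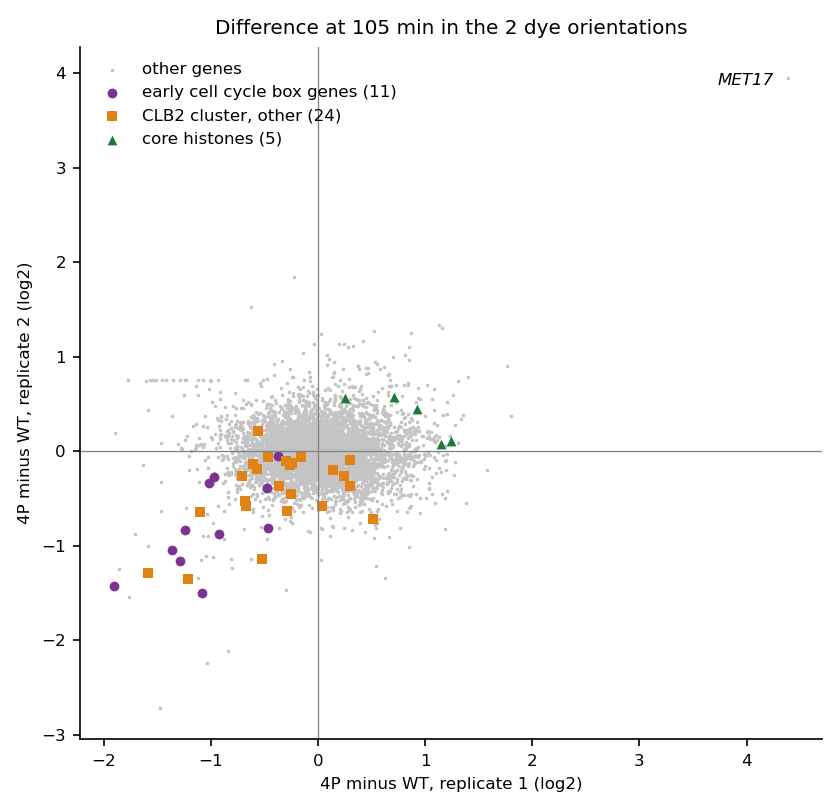
Difference 4P minus WT at 105 min in replicate 1 (horizontal axis) against that in replicate 2 (vertical axis), both on the log2 scale, for 5773 genes with all 4 values. Early cell cycle box genes (purple circles) lie low on both axes, the other CLB2 cluster genes (orange squares) mostly so, and the 5 complete histone genes (green triangles) above 0 on both. The horizontal streak near 0.75 on the vertical axis holds genes with saturated spots.

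The 2 dye orientations shared little signal across all genes. Over 5773 genes the differences in replicate 1 and replicate 2 correlated at r = 0.0558, a description across genes that are not independent, and 2811 had the same sign in both. Of the 6205 genes, 103 had a saturated spot on at least 1 array at 105 min and 13 on all 4. No gene given with a value here was among them. The counts and medians of the gene lists did not leave such genes out.

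No gene of the mating lists passed the test in the main fit. GPA1, the alpha subunit of the pheromone-coupled G protein, stood at -0.43 and -0.45 in WT and at -1.89 and -1.09 in 4P (-1.05 ± 0.24, adjusted p = 0.0632). STE2, the alpha-factor receptor gene, stood at -1.22 and -0.66 in WT and at -2.02 on the single 4P array that measured it, that of replicate 2 (-1.08 ± 0.25, adjusted p = 0.0631). FAR1, which arrests the cycle in response to pheromone, and STE6, the exporter of a-factor, also lacked the first 4P array and differed by -0.94 ± 0.28 (adjusted p = 0.234) and -0.68 ± 0.24 (adjusted p = 0.404). With 1 of the 4P arrays missing the dye effect does not cancel in these genes. MFA2, an a-factor gene, stood at -1.70 and -1.85 in WT and at -2.39 and -2.68 in 4P (-0.76 ± 0.23, adjusted p = 0.268). All 7 MATa-specific genes were lower (4 of 7 with slide as a block) and 0 passed, with 3 lower at an unadjusted p below 0.05 and a median of -0.25. Of the 18 genes of pheromone response and mating, 13 were lower (10 with median centring, with the scanner's ratios, in the authors' deposited table and with slide as a block). None of the 18 passed, 2 were lower and 1 higher at an unadjusted p below 0.05, and the median was -0.07. STE3, the receptor gene of the opposite mating type, stood at 0.34 and 0.55 in WT and at -0.13 and -0.38 in 4P (-0.70 ± 0.19, adjusted p = 0.146). Of the 4 alpha-specific genes 3 were lower, and of 12 meiotic genes 7 were lower, with 0 called in either list (1 and 0 at an unadjusted p below 0.05). Some alternatives did call mating genes. GPA1 was called with a replicate block, alone or with array weights, and with the time course as a random block. STE2 was called with the scanner's ratios and with a replicate block, on log ratios or on the synchronised channel alone. STE3 was called with the scanner's ratios and in the authors' deposited table.

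The mutated genes themselves did not pass the test at 105 min. HCM1 stood at -0.23 and -0.60 in WT and at 0.06 and -0.74 in 4P, with an interval from -0.76 to 0.90. YOX1 stood at 0.24 and -0.29 in WT and at -0.02 and -0.73 in 4P, with an interval from -1.18 to 0.47. TOS4 stood at -3.34 and -3.02 in WT and at -2.79 and -3.78 in 4P. YHP1 stood at -1.69 and -1.56 in WT and at -1.80 and -1.98 in 4P (-0.26 ± 0.16, adjusted p = 0.726), the one of the set whose arrays did not overlap. These loci carry tags in both strains and substitutions in 4P, and whether the probes cover altered sequence was not tested. The early cell cycle box fall at 105 min stood beside YOX1 and YHP1 signals that did not pass the test. Known Hcm1 targets were split, 4 lower and 4 higher, with a median of 0.00. FKH2, the forkhead gene that acts with Mcm1 on the CLB2 cluster, stood at 0.43 and 0.49 in WT and at -0.33 and 0.21 in 4P (-0.52 ± 0.16, adjusted p = 0.261). Among 45 spindle and kinetochore genes 19 were lower, 0 passed (1 at an unadjusted p below 0.05) and the median was 0.01. The kinetochore gene NUF2 differed by -0.45 ± 0.16 (adjusted p = 0.377).

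None of the 5 loci measured from the list of strain markers passed the test at 105 min in the main fit. MET17, also used as a marker locus, is not on that list and was called at every time. LYS2, a lysine synthesis gene, stood at -0.11 and -0.03 in WT and at -1.59 and -2.75 in 4P (-2.10 ± 0.48, adjusted p = 0.0631). That was the lowest difference of all genes tested. It was of like size at 45, 60 and 90 min, at -2.39, -2.15 and -2.19. Some alternatives called LYS2 at 105 min. These included a replicate block, alone, with array weights or on the synchronised channel alone, and slide as a block. LYS2 was also called with the time course as a random block and with WT as the mean of 90 and 105 min. HIS3 stood between 2.31 and 4.16 and LEU2 between 3.53 and 5.06 on all 4 arrays, high over the reference in both strains. The arrays of the strains overlapped in both genes. Of 137 cytosolic ribosomal protein genes 90 were higher, with a median of 0.11 that became -0.04 without 4P replicate 1. The medians were 0.05 over 66 mitochondrial ribosomal protein genes and 0.06 over 43 ribosome biogenesis genes, and 0 genes of these lists passed (14, 6 and 1 higher and 1, 0 and 0 lower at an unadjusted p below 0.05). Of 42 amino acid genes 25 were higher and 0 passed. ASN1, an asparagine synthetase gene, differed by 0.69 ± 0.18 (adjusted p = 0.132), LEU1 by -0.64 ± 0.21 (adjusted p = 0.323), and BAT1, measured on 1 of the 4P arrays, by -0.81 ± 0.19 (adjusted p = 0.0731). In the endoplasmic reticulum folding list 9 of 10 genes were higher with a median of 0.37, which became 0.20 without 4P replicate 1 and 0.59 without 4P replicate 2, and 0 passed (4 at an unadjusted p below 0.05). EUG1, a protein disulfide isomerase gene, differed by 0.44 ± 0.17 (adjusted p = 0.437) and the thiol oxidase gene ERO1 by 0.42 ± 0.18 (adjusted p = 0.493).

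**Figure D5:**
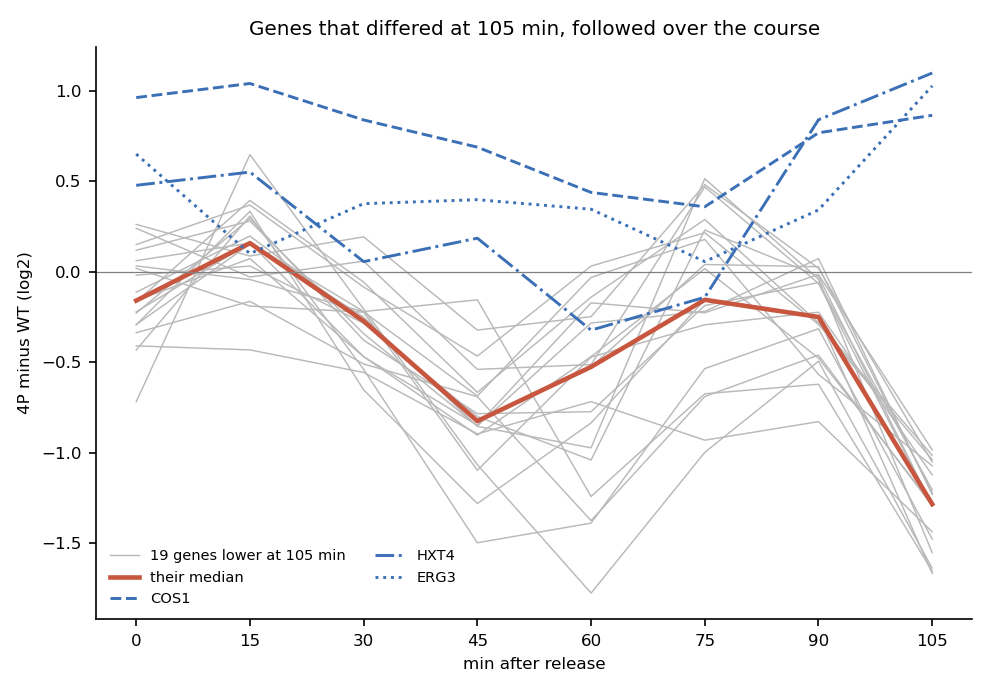
Difference 4P minus WT (log2, vertical axis) against min after release for the 19 genes lower at 105 min (grey lines, their median in red) and for COS1, HXT4 and ERG3 (blue lines). The red line dips to -0.83 at 45 min and returns to -0.25 at 90 min before the drop at 105 min that chose the genes.

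The first mitosis gave a comparison on other arrays of the same cultures. At 45 min all 19 genes that fell at 105 min were lower in 4P, with a median of -0.83, and DBF2, MCM7, TDA6 and YGP1 were called there. At 45 min 0.145% of all genes were called lower. At 60 min 18 of the 19 were lower with a median of -0.53, and MCM5, PRY1, YGP1, YHL026C and YRO2 were called, against 0.435% of all genes. By 90 min the median was -0.25 and 0 of the 19 passed, with 16 of 19 lower and 0.0161% of all genes called lower. A test of the difference at 105 min against that at 45 min called 0 genes in limma, with 185 of 6205 at an unadjusted p below 0.05. At 75 min, where 143 genes (2.3%) were called lower and 166 (2.68%) higher, 10 of the 19 were lower and WSC4 and YRO2 were called.

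Against the mean difference of the other 7 times, 8 genes departed at 105 min, all downward, which is 0.129% of the genes tested. They were DBF2, MCM7, MCM5, MCM2, CDC20, NDL1, BNS1 and YML119W, with departures from -0.88 to -1.24. DBF2 had the smallest adjusted p, at -0.99 ± 0.14 (adjusted p = 0.00468). PRY1 departed by -1.23 ± 0.29 (adjusted p = 0.134) and HST4 by -1.30 ± 0.28 (adjusted p = 0.0686) without passing. Those of MET17 and COS1 were -0.31 ± 0.52 and 0.14 ± 0.20.

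One alternative took the mean of 90 and 105 min as the WT level. The call of a fall then held for DBF2 (-0.58, adjusted p = 0.0283), MCM7 (-0.93), MCM5 (-0.76) and MCM2 (-0.76), for HST4 (-1.06) and for YRO2 (-1.61). It did not hold for CDC20 (-0.09), YML119W (-0.15), PHO3 (-0.05), TDA6 (-0.24), EIS1 (-0.24) or BNS1 (-0.30). The falls of MCM4 (-0.80, adjusted p = 0.147), PRY1 (-1.05, adjusted p = 0.0548), WSC4 (-0.70), NDL1 (-0.56), YGP1 (-0.55), YHL026C (-0.63) and PHO11 (-0.22) lost their call there too. Histone genes then had a median of -0.24 and the CLB2 cluster one of 0.11, the opposite sign of the main comparison in both lists, while the early cell cycle box median was -0.61. Whether 4P was at an earlier stage was not tested.

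Slide was the other limit. In a fit with slide as a block, where the slides are linked through the other times alone, 5 of 6205 genes were called: DBF2 (-1.20, adjusted p = 0.0186), MCM5 (-1.44, adjusted p = 0.00261), MCM7 (-1.80, adjusted p = 0.0186), MET17 (5.25) and LYS2 (-1.59). The other 19 genes kept their direction and lost their call, among them CDC20 (-1.15, adjusted p = 0.327) and HST4 (-0.95, adjusted p = 1). Without 4P replicate 1, the array with the outlier spots, 11 of the 23 genes remained called, among them DBF2, MCM7, MCM5, MCM2, PRY1, YRO2 and MET17, and without 4P replicate 2 337 of 5773 genes were called. Without WT replicate 1 the genes that remained numbered 8, and without WT replicate 2 they numbered 11.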

How the data were processed

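RNA was measured on Agilent 2-colour arrays. The deposited scanner files come from Agilent Feature Extraction, version 10.7.1.1 in the submitters' processing notes. Per the file headers they give the median intensity of signal and background in each channel and a log10 ratio, red over green. The authors' deposited table holds log2 values with column medians from -0.04 to 0.02, in the direction of synchronised over reference (r = 0.961 to 0.999 with the scanner's ratio per array), with a normalisation that no source used here gives. Intensities were corrected with normexp (offset 50) and normalised by loess within arrays in limma 3.58.1 under R 4.3.3. Outlier-marked spots were removed, ratios turned to synchronised over reference, and spots and probes averaged per gene. Probes above background on 1 whole group were kept (6236 of 6256), for 6205 genes. Of 29 genes with several probes 9 had probes that disagreed (r below 0.5). Of 6225 systematic names 5737 matched a RefSeq R64 table, and the rest kept the array's name. No coordinates or sequences are given.

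A group-means model over 32 arrays gave 16 residual degrees of freedom, without a replicate block. Tested on simulated data in which 200 of 6205 genes were changed, it recovered 96% of changes of -2, 96% of -1.5, 90% of -1 and 84% of 1. It called 5 unchanged genes. The simulated noise of a gene had the same size on all arrays and held no dye, slide or array effect. These rates therefore need not hold for the arrays at 105 min, among them the 4P array with outlier spots. Genes named were the called genes (up to 20 in each direction), up to 4 members of each gene list with the largest differences and every called member, fixed cell cycle genes, and genes that departed from other times. Some genes of this rule are not reported here. Members and lists were chosen with earlier results of these data known. Alternatives covered background, scaling, filters, blocks, weights and left-out arrays.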

Additional observations from a re-analysis of the deposited data

Results flagged for a closer look

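For 8 genes the strain difference at 105 min departed, by a test of that departure in limma, from the mean difference at the other 7 times. The departure was -1.24 for NDL1, -1.219 for MCM7, -1.118 for BNS1, -1.026 for CDC20, -1.019 for MCM5, -1.012 for MCM2, -0.9859 for DBF2 and -0.8804 for YML119W on the log2 scale. In each of them both arrays of 4P lay below both arrays of WT at 105 min. Against the difference at 45 min, the time of the first mitosis, 0 genes departed. The number that departed from the other 7 times was 1 with median centring and 0 with array weights. It was 2 with the scanner's ratios, in the authors' deposited table and with outlier spots kept. No explanation of these departures was tested.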

How the results depend on the processing

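The 19 lower and 4 higher calls kept their direction under all 22 alternatives run. MET17 kept its call in all 22, DBF2 and MCM5 in 21, MCM7 in 20 and MCM2 in 19. YRO2 kept its call in 18, TDA6 and YML119W in 17, and HST4, PRY1 and WSC4 in 16. For HXT4 and YHL026C the number was 15, for NDL1 14, for PHO3 13, for CDC20 12 and for YGP1 11. The lowest numbers were 10 for BNS1 and EIS1, 9 for MCM4, 8 for COS1 and PHO11, and 7 for ERG3. With the scanner's ratios and in the authors' deposited table BNS1, CDC20, COS1, EIS1, ERG3, MCM4, NDL1 and PHO11 lost their call. The lower, higher and departure counts were 14, 2 and 1 with median centring, 16, 2 and 2 with the scanner's log ratios and with the authors' deposited table, and 20, 3 and 2 with outlier spots kept. A replicate block gave 30, 9 and 17, slide as a block 4, 1 and 4, and the counts were 20, 3 and 17 with the time course as a random block, 10, 2 and 0 with array weights, 17, 2 and 2 with a replicate block and array weights, and 25, 3 and 13 with the synchronised channel alone and a replicate block (both chosen after seeing the data). With only the 4 arrays at 105 min they were 0 lower (184 genes at an unadjusted p below 0.05) and 1 higher. The replicate number was a block as an alternative only, since deviations of same-numbered arrays correlated at r = 0.05 to 0.372 over the times and all 23 calls held under it. Leaving out arrays moved the counts from 5 to 157 lower, from 1 to 180 higher, from 0 to 387 for departures and from 0 to 47 against 45 min, with the upper ends reached without 4P replicate 2, where the dyes no longer balance and the array with outlier spots stands alone.

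Signs turned in genes that were not called. With WT as the mean of 90 and 105 min they were 0.22 for HOF1, 0.26 for IQG1, 0.35 for CLB1, 0.30 for CLB2, 0.41 for CDC5, 0.56 for SWI5, -0.15 for HHF1, -0.092 for HHF2, -0.082 for HTA1, -0.15 for MSH6, -0.038 for SMC3, -0.14 for CLN1, -0.24 for CLN2, -0.32 for CLB5, -0.62 for CLB6 and -0.38 for HCM1. With median centring CLB1 stood at 0.087, CDC5 at 0.081, SWI5 at 0.062 and SIC1 at 0.0062. The scanner's ratios gave 0.042 for CDC5, 0.18 for SIC1 and -0.063 for CLB5, while 0.05, 0.18 and -0.055 came from the authors' deposited values. Slide as a block gave 0.17 for CLB1, -0.048 for CLN2, -0.19 for CLB6 and 0.26 for TOS4. Leaving out arrays gave ranges of -0.23 to 0.18 for SWI5, -0.12 to 0.15 for CLB6, -0.37 to 0.30 for CLB1, -0.72 to 0.51 for CLB2, -0.26 to 0.24 for CDC5, -0.21 to 0.12 for SIC1, -0.33 to 0.47 for HCM1, -0.76 to 0.55 for TOS4, -0.71 to 0.004905 for YOX1, -0.22 to 1.84 for HIS3 and -0.63 to 1.53 for LEU2. The cause of these shifts was not tested.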
